A study of Mytilus galloprovincialis with 40 samples.

Results

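The entry of the mussel *Mytilus galloprovincialis* into early summer was followed in the female digestive gland by setting June 2007 against May 2007 on 3 two-colour cDNA microarrays, which were all the arrays of this step among the 40 arrays of a survey that closed a loop of 12 months. Each array received RNA of 1 female of June and 1 female of May, both from the Bizerta Lagoon in Tunisia, and the females of a month came from its most common stage of gonad development. No treatment was given, and the age of the animals is not given in the sources used here. June was labelled with Cy5 on replicate 1 and with Cy3 on replicates 2 and 3, so that both dye orientations were present but not in equal number. The readout was the ratio of June over May for each of 1920 cDNA clones, all of which are described here. Positive log2 values stand for more transcript in June.

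The bivalve digestive gland takes up and breaks down food inside its cells, stores reserves for gamete production and handles metals and organic pollutants. Its work follows the seasons, since water temperature, food supply and the reproductive cycle all change over the year. On an array of this kind, cDNA of both animals competes for the same printed clone, so that each spot gives relative and not absolute transcript abundance. The RNA came from whole pieces of gland, and fewer cells of a type cannot be told apart from less RNA per cell. Each month was sampled once, so that the month and the particular sampling of animals cannot be told apart either. The files used here carry position codes of the clones and no gene names, and markers of the digestive gland or of other tissues were therefore not examined.

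Higher and lower clones were nearly equal in number. In the limma fit over the whole loop, 75 of the 1920 clones (3.91%) were called between the months. Of these, 38 were higher in June (1.98%) and 37 lower (1.93%), so that neither direction prevailed among the calls. Normalization centred the log2 ratios of each array near 0. A rise or fall shared by most clones could therefore not show in these counts. A call required a Benjamini-Hochberg adjusted p under 0.05 over all clones together with B, the log odds of a difference, above 0; the adjusted p alone was passed by 175 clones (9.11%). The higher clones stood a median of 1.65-fold above May and the lower ones a median of 1.60-fold below it. A difference of at least 2-fold was fitted in 11 of the higher and 10 of the lower clones.

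The 3 arrays were of fair signal compared with the other 37 arrays of the survey. A spot was taken as above background where its mean foreground exceeded the local background by 2 SD of that background, and this held in both dyes for 47.3% of the clone spots on replicate 1, 49.6% on replicate 2 and 56.8% on replicate 3. On the other arrays this share ran from 13.6% to 78.4% with a median of 37.4%. Positions without a clone passed in 0.164% of cases on each of the 3 arrays, and no spot was saturated. The 2 spots of a clone correlated across clones with r = 0.71 on replicate 1, 0.89 on replicate 2 and 0.82 on replicate 3, against a median of 0.78 on the other arrays. Replicate 1 was thus the least repeatable within itself. The SD of the log2 ratios over clones was 0.47, 0.52 and 0.46 on replicates 1, 2 and 3, and the median of the other arrays was 0.42.

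The pairs of animals differed in which clones moved, most of all between replicates 1 and 3. Across the 1920 clones, the log2 ratios of replicates 1 and 2, which carry opposite dyes, correlated with r = 0.37. Replicates 2 and 3, of the same dye orientation, correlated with r = 0.36. Replicates 1 and 3, again of opposite dyes, correlated with r = -0.05. Restricting the comparison to the 879 clones above background in both months on all 3 arrays gave 0.42, 0.37 and -0.07 in the same order. In the other steps the median r was 0.71 over 16 pairs of arrays of the same dye orientation and 0.36 over 29 pairs of opposite orientation. These values run across clones of the same slides, which are not independent replicates, and whether animal, dye or hybridization set them was not tested.

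The largest single ratios showed the same division. Replicates 1 and 2 shared 26 clones at least 2-fold higher and 10 at least 2-fold lower in June, and 3 clones passed 2-fold in opposite directions. Replicates 2 and 3 shared 14 higher and 14 lower clones and had 10 in opposite directions. Between replicates 1 and 3 there were 3 shared higher clones, 3 shared lower ones and 15 in opposite directions. Clones past 2-fold on both replicates 1 and 3 were thus more often opposed than alike.

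**Figure D1:**
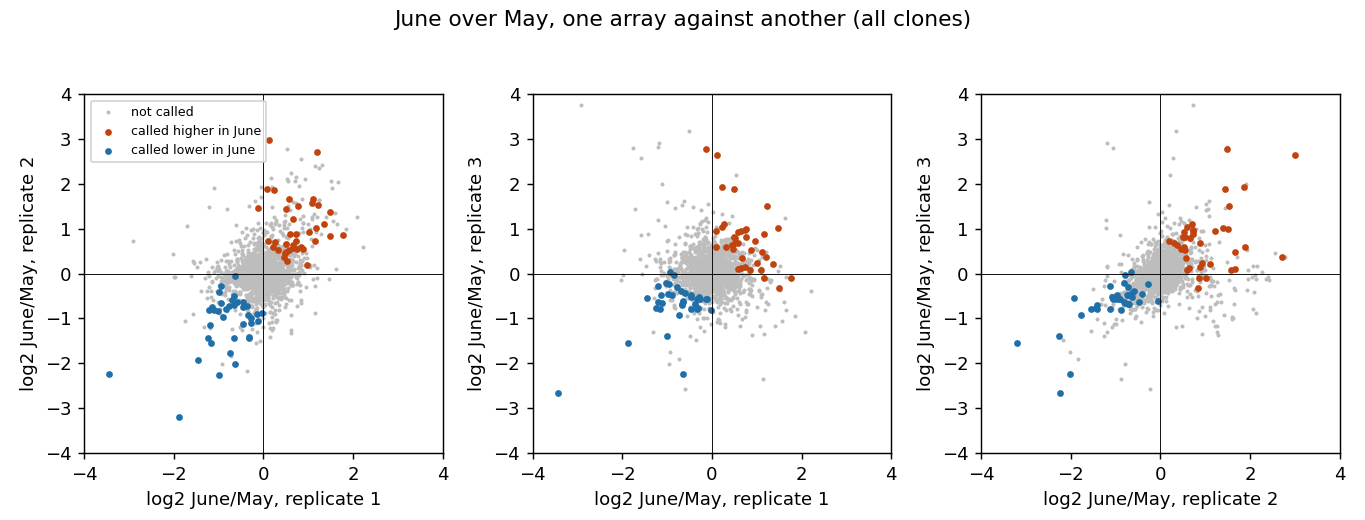
Log2 ratio of June over May of 1920 clones, with 1 array on each axis, in the 3 pairings of replicates 1, 2 and 3. Grey points are clones not called, red points the 38 clones called higher in June and blue points the 37 called lower. The clouds of replicates 1 and 2 and of replicates 2 and 3 lean upward (r = 0.37 and 0.36), and that of replicates 1 and 3 does not (r = -0.05).

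Most clones changed little. All 3 arrays stayed within 1.5-fold of equal levels in 1315 clones (68.5%), and 486 clones (25.3%) were not above background in either month on any array. The mean log2 ratio of the 3 arrays had a median of -0.00 over all clones, a 5% quantile of -0.50 and a 95% quantile of 0.56, and its extremes were -2.78 and 1.92. The SD of a clone over the 3 arrays had a median of 0.23, and of 0.34 among the clones above background throughout. The size of the mean ratio, without its sign, had a median of 0.14, and was thus smaller than that spread in the middle of the distribution. In 322 clones (16.8%) June was higher on every array and in 357 (18.6%) it was lower on every array, while the remaining clones did not have 1 direction.

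Few clones changed strongly in every animal pair. At least 1.5-fold on each of the 3 arrays was reached by 8 clones in the upward and 17 in the downward direction, and at least 2-fold on each by 2 and 3 clones. By their mean, 20 clones were at least 2-fold higher and 16 at least 2-fold lower. The fit gave differences of at least 2-fold in 38 clones, of which 21 were called. The arrays differed in direction in 6 of the 17 clones that were not.

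The 38 clones called higher in June had fitted differences from 1.39-fold to 3.69-fold, with standard errors between 0.10 and 0.37 on the log2 scale and adjusted p from 5.81e-06 to 0.00898. June exceeded May on all 3 arrays in 34 of them and on 2 arrays in the other 4. Their median log2 ratio was 0.66 on replicate 1, 0.85 on replicate 2 and 0.68 on replicate 3. The lowest and highest ratios were -0.13 and 1.77 on replicate 1, 0.20 and 2.99 on replicate 2, and -0.33 and 2.79 on replicate 3. The largest ratio of a clone fell on replicate 1 in 12 cases, on replicate 2 in 11 and on replicate 3 in 15. A clone's SD over the arrays reached 1.57 on the log2 scale, and its median was 0.38. At least 1.5-fold on every array was seen in 7 of the 38.

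The 37 clones called lower had the same direction on the arrays with 1 exception. Their fitted differences lay between 1.34-fold and 6.15-fold below May, with standard errors from 0.10 to 0.63 on the log2 scale and adjusted p from 5.81e-06 to 0.00901. June was below May on all 3 arrays in 36 clones and on 2 arrays in the remaining 1. The median log2 ratio was -0.70 on replicate 1, -0.89 on replicate 2 and -0.57 on replicate 3. The clones spanned -3.44 to -0.03 on replicate 1, -3.20 to -0.05 on replicate 2 and -2.67 to 0.03 on replicate 3. Replicate 3 gave the smaller decreases, since it held the largest fall of a clone in 1 case, against 14 for replicate 1 and 22 for replicate 2. At least 1.5-fold on every array was seen in 11 of the 37. Directions and sizes on these arrays entered the calls themselves, since the 3 arrays carried a weight of 0.91 in the fitted difference.

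**Figure D2:**
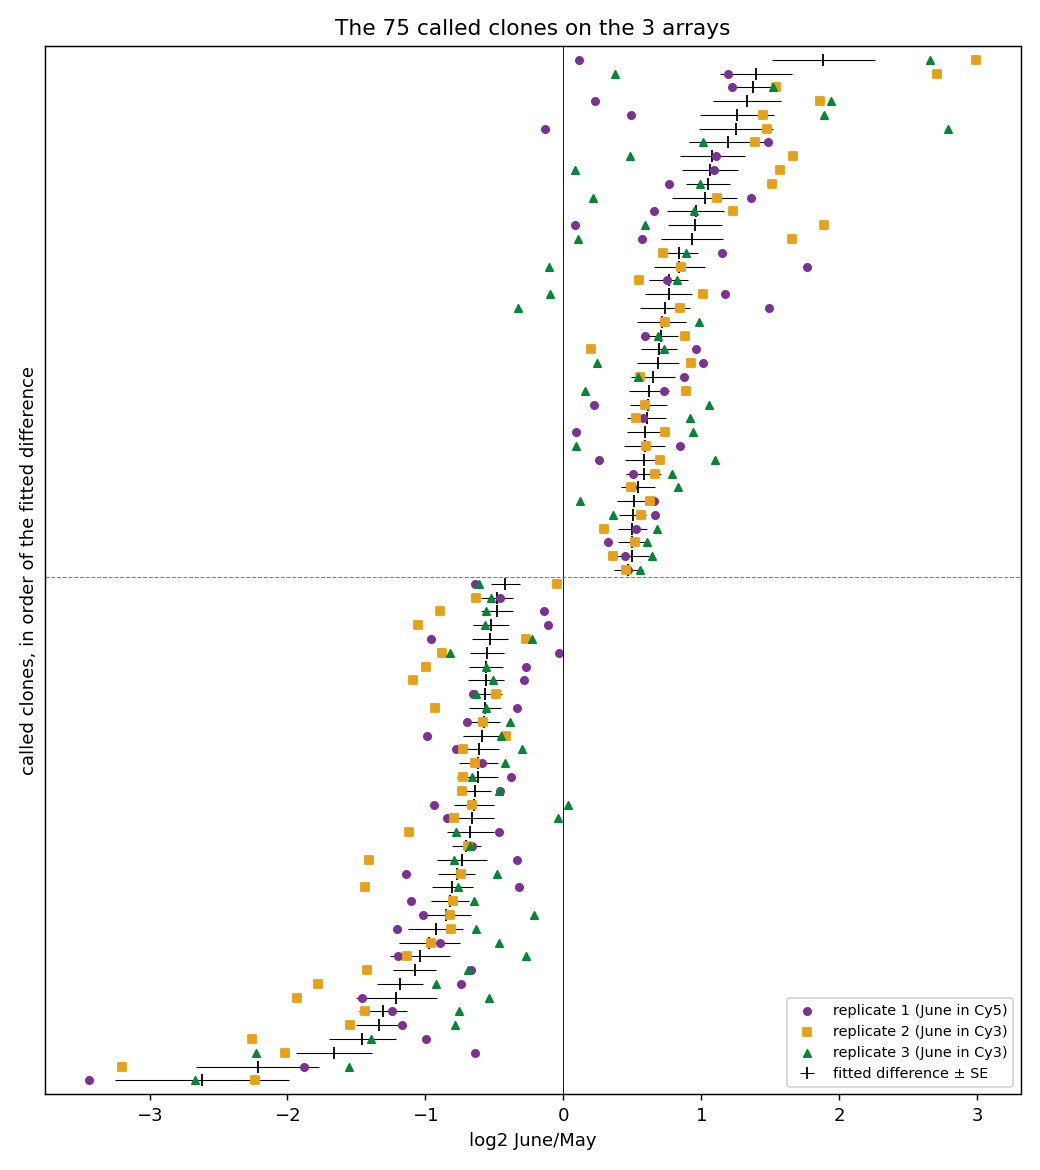
Log2 ratio of June over May of the 75 called clones, 1 line per clone in order of the fitted difference, with a purple circle for replicate 1, an orange square for replicate 2 and a green triangle for replicate 3. Black ticks with lines show the fitted difference ± SE. The 38 higher clones are above the dashed line, with 34 on the right of 0 on all 3 arrays, and 36 of the 37 lower clones lie on the left of 0 on all 3.

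4 clones are named, the pair with the highest B in each direction. Myt01-003D06 (plate 3, well D06) had log2 ratios of 1.22 on replicate 1, 1.54 on replicate 2 and 1.52 on replicate 3. All arrays gave a clear excess in June, and they lay close together. The mean was 1.43 ± 0.18 (SD, n = 3), and the limma fit gave 1.38 ± 0.17 (SE), a 2.60-fold excess with an adjusted p of 5.81e-06. In scanner units, the foreground of June was 811, 2237.5 and 2844 on replicates 1, 2 and 3 over local backgrounds of 181, 304.5 and 377.5. The foreground of May was 622.5, 826.5 and 966.5 over backgrounds of 277, 234 and 235.5. Both months were therefore above background on each array, and May gave the weaker signal throughout. These intensities precede the background and dye correction and do not give the ratio directly.

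Myt01-014H10 (plate 14, well H10) had log2 ratios of 0.77, 1.51 and 0.99 on replicates 1, 2 and 3. June was higher on each array, most so on replicate 2. The mean was 1.09 ± 0.38 (SD, n = 3) and the fitted difference 1.05 ± 0.16 (SE), with an adjusted p of 4.62e-05 in limma. May did not rise above background on any of the arrays, with foregrounds of 410.5, 262.5 and 245 over backgrounds of 295.5, 213 and 187, whereas June did on all 3, with 334, 542.5 and 539 over 171.5, 258.5 and 288.5. With May set to no less than the lowest signal of clones above background, the excess was 1.93-fold. This floor changed the May value on 1 of the 3 arrays only, so that 1.93-fold is not a lower bound. Without background correction the fitted difference was 0.56 on the log2 scale and stayed called. In 3 other called clones, too, just 1 of the 2 months rose above background on any array. For 1 of them, higher in June, the excess was 1.83-fold with the same floor, which again acted on 1 array. The other 2 were lower clones with June not above background, fitted at 1.47-fold and 1.51-fold below May, of which only the direction is read.

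Myt01-012D07 (plate 12, well D07) and Myt01-011D07 (plate 11, well D07) led the lower clones with almost the same values, and the same well of plates 13 and 14 held 2 more called lower clones. Myt01-012D07 had log2 ratios of -1.17, -1.55 and -0.78 on replicates 1, 2 and 3. Myt01-011D07 had -1.24, -1.44 and -0.75. In both clones June was lower on each array, most on replicate 2 and least on replicate 3. The means were -1.17 ± 0.38 for Myt01-012D07 and -1.15 ± 0.35 for Myt01-011D07 (SD, n = 3). The fit gave -1.33 ± 0.17 (SE) for Myt01-012D07, which is 2.52-fold lower, and -1.31 ± 0.17 for Myt01-011D07, 2.48-fold lower, each with an adjusted p of 5.81e-06 in limma.

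Both were bright spots. For Myt01-012D07 the May foreground was 1887, 3045.5 and 3899 and the June foreground 683.5, 1243 and 2636 on replicates 1, 2 and 3, and for Myt01-011D07 it was 4324, 3350.5 and 4362 in May and 1701.5, 1449.5 and 3077 in June. The clones were printed in different blocks of the slide, 12 and 16, at the same column and the same rows within the block. Over the other 37 arrays of the survey their log2 ratios correlated with r = 0.86, while the median clone correlated with Myt01-012D07 at r = 0.01. The clones in well D07 of plates 13 and 14, looked up after their values were seen, had log2 ratios of -1.02, -0.82 and -0.21 and of -0.67, -1.43 and -0.69 on replicates 1, 2 and 3. Their fitted differences were -0.85 ± 0.18 and -1.08 ± 0.16 (SE), and their r with Myt01-012D07 over the other 37 arrays was 0.75 and 0.87. Of the 20 clones in well D07, 1 per plate, only the 4 of these neighbouring plates were called, all lower, and no other well held as many calls. Whether the 4 codes hold cDNA of the same transcript cannot be read from the files. They may not be separate observations, and without this well 33 lower clones remain.

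**Figure D3:**
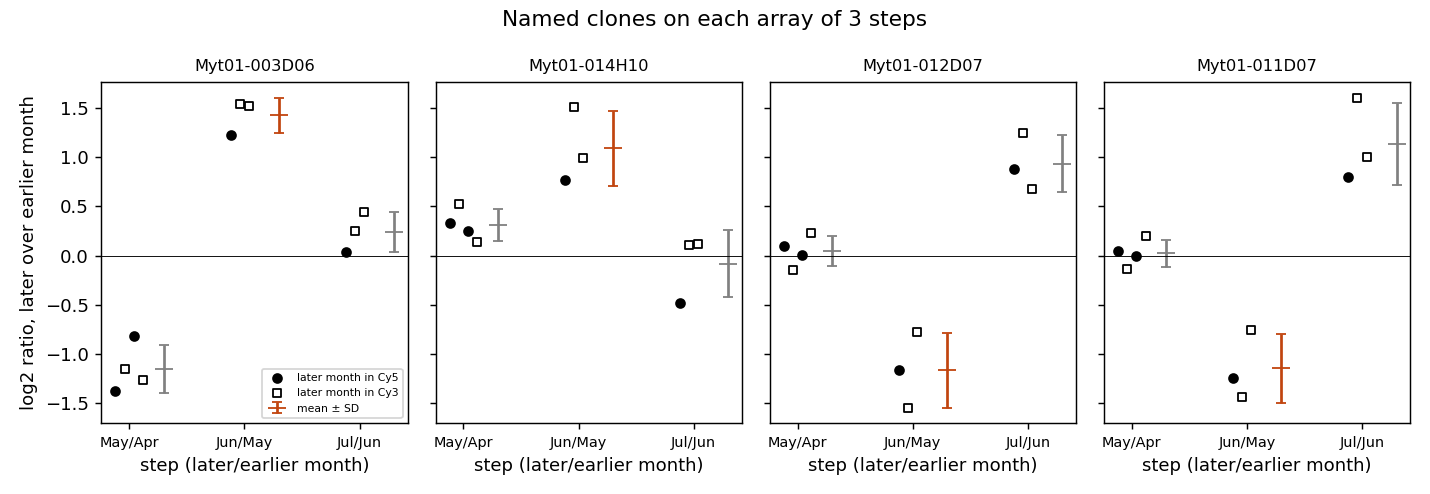
Log2 ratio of the later over the earlier month for Myt01-003D06, Myt01-014H10, Myt01-012D07 and Myt01-011D07 on each array of the steps May/Apr (4 arrays), Jun/May (3) and Jul/Jun (3). Filled circles have the later month in Cy5, open squares in Cy3, and the bars give mean ± SD. In Jun/May the first pair of clones lies above 0 and the second pair below 0 on every array.

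The count of calls rested most on replicate 2. Without replicate 2 there were 31 called clones, 11 higher and 20 lower, of which 24 were among the 75. Without replicate 1 there were 68, of which 39 were among the 75, and without replicate 3 there were 83, 54 of them higher, of which 44 were among the 75. The calls drew on the spread estimated over the whole survey: a limma fit on the 3 arrays alone, with 2 residual degrees of freedom, called 0 clones, although 230 had an unadjusted p under 0.05, including 66 of the 75. Under the settings described in the closing part, none of the 75 changed direction where it was tested. These settings kept Jun/May arrays by which the clones were chosen, so that a stable direction was largely built in. Without each of the 3 arrays in turn, 5 of the higher and 10 of the lower clones were called every time. The named clones were among them, with log2 differences of 1.31 to 1.45 for Myt01-003D06, 0.84 to 1.17 for Myt01-014H10, -1.57 to -1.24 for Myt01-012D07 and -1.55 to -1.25 for Myt01-011D07.

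June can also be reached from May through the 37 remaining arrays, by going the other way round the loop. That estimate was less precise, with a median SE of 0.47 on the log2 scale against 0.15 in the full fit. It gave 0.90 ± 0.58 (SE) for Myt01-003D06, 0.61 ± 0.51 for Myt01-014H10, -3.01 ± 0.47 for Myt01-012D07 and -2.93 ± 0.48 for Myt01-011D07. The signs of these 4 clones were those of the 3 direct arrays. The clones were chosen by the full fit, which already held these 37 arrays, so that the likeness is not a separate check. Over all 1920 clones, the ratios by this route correlated with r = 0.35 with those of replicate 1, 0.40 with replicate 2 and -0.02 with replicate 3, so that the likeness did not extend to replicate 3. The route includes the first Apr/Mar array, whose ratios correlated with those of the other 3 Apr/Mar arrays at r between -0.81 and -0.62, against 0.64 to 0.75 among those 3. Without it, a choice made after seeing the data, the values were 1.15 ± 0.52, 0.66 ± 0.52, -3.11 ± 0.47 and -3.03 ± 0.48 in the same order of clones. The values of the D07 pair were farther from 0 by this route, a difference that was not tested. Neither the labels nor the study state outright whether the same May and June animals were used on the arrays of the adjoining steps. In that case the estimates would not be independent.

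Calls lay among the brighter clones. With the clones split into 4 equal classes by mean brightness over the 3 arrays, the dimmest 480 clones gave 0 calls in limma with 16 at an unadjusted p under 0.05, the next class 13 (2.71%), the third 30 (6.25%) and the brightest 32 (6.67%). The higher clones numbered 0, 9, 17 and 12 from dim to bright and the lower ones 0, 4, 13 and 20. The median brightness, as mean log2 intensity of both dyes, was 8.52 among the higher clones, 9.80 among the lower and 7.91 among all clones. The lower clones thus belonged to brighter spots. All 3 arrays were above background in both months for 22 of the 38 higher clones and 30 of the 37 lower ones. At the dim end, 2 higher clones had May below the limit on every array and 1 had both months below it, and 2 lower clones had June below it. The arrays did not become more alike in every pairing as spots became brighter, since r between replicates 1 and 3 was -0.07, 0.02, 0.03 and -0.15 over the 4 classes while r between replicates 1 and 2 was 0.08, 0.17, 0.39 and 0.43.

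**Figure D4:**
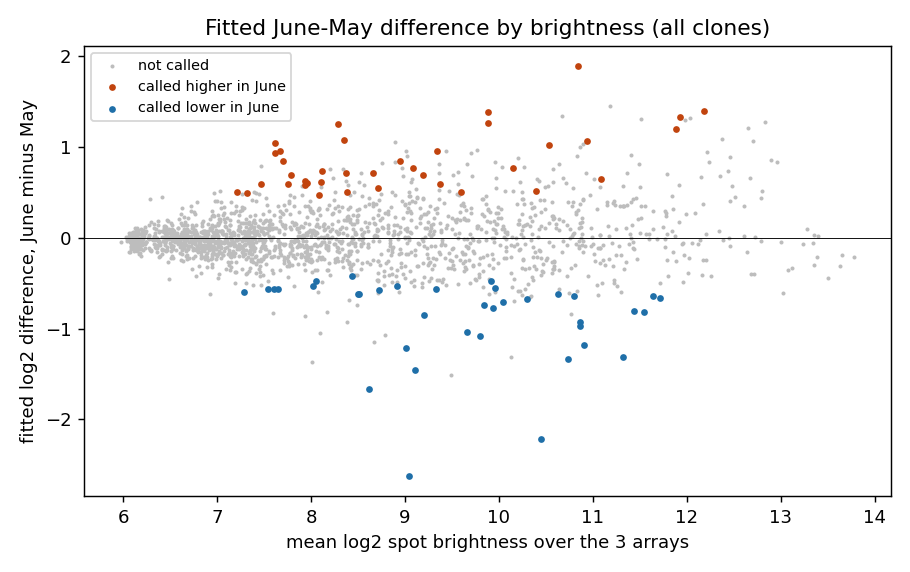
Fitted log2 difference of June minus May against the mean log2 spot brightness of the 3 arrays for 1920 clones. Grey points are clones not called, red points the 38 higher and blue points the 37 lower clones, with 0 calls in the dimmest 480 clones and 32 in the brightest 480.

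The called clones came from many source plates. Plates 13 and 15 contributed 9 each, 9.38% of their 96 clones, against 3.91% over all clones. Plate 20 contributed 0 in limma, with 3 clones at an unadjusted p under 0.05, and none of its clones was above background in both months on all 3 arrays. Every other plate held between 1 and 6. Plate 13 gave 6 higher and 3 lower clones, plate 15 gave 5 and 4, and both directions were therefore present on each.

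June against May was next compared with the steps on either side of it, which share the months May and June with it, so that a high or low value in 1 month moves neighbouring steps in opposite directions. In the step from April to May 124 clones (6.46%) were called and in the step from June to July 49 (2.55%). Myt01-003D06 had log2 ratios of -1.38, -1.15, -0.81 and -1.26 on the 4 May/Apr arrays, a mean of -1.15 ± 0.24 (SD, n = 4), and 0.04, 0.25 and 0.44 on the Jul/Jun arrays. It was thus lower in May than in April, higher again in June, and its July step of 0.24 ± 0.20 (SD, n = 3) was not called, with an adjusted p of 0.659 in limma. For Myt01-014H10 the May/Apr mean was 0.31 ± 0.16 (SD, n = 4) and the Jul/Jun mean -0.08 ± 0.34 (SD, n = 3), neither of them called (adjusted p of 0.260 and 0.793 in limma). The April of the survey was that of 2008, which was sampled after the May and June of 2007.

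The named D07 pair was lower in June than in May and higher in July than in June. On the May/Apr arrays Myt01-012D07 averaged 0.05 ± 0.16 and Myt01-011D07 0.03 ± 0.14 (SD, n = 4), not called at adjusted p of 0.963 and 0.924 in limma. On the Jul/Jun arrays the ratios of Myt01-012D07 were 0.88, 1.25 and 0.68 and those of Myt01-011D07 0.79, 1.60 and 1.00. July was above June on each of them. The fitted July step was 0.77 ± 0.17 (SE, adjusted p 0.00668) for Myt01-012D07 and 0.97 ± 0.17 (SE, adjusted p 0.000784) for Myt01-011D07, both called in limma.

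The difference between neighbouring steps was itself tested. The June step differed from the May step in 76 clones (3.96%), being the more positive in 56 and the more negative in 20, and with a separate loess curve per print-tip block this split was 55 to 34. The July step differed from the June step in 93 clones (4.84%), 44 more positive and 49 more negative, and this split was 11 to 47 with median centring in place of loess. Among the 38 higher clones, 15 departed from their May step and 15 from their July step. Among the 37 lower clones these numbers were 14 and 23. The choice of the members by the June step enters both tests, so that these shares describe them and are not set against the background.

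In the adjoining steps the higher clones had no common direction. Their median log2 difference was 0.07 from April to May, with 4 called up and 7 called down, and -0.10 from June to July, with 1 up and 2 down. The lower clones had a median of 0.09 in the May step with 0 called by limma and 5 at an unadjusted p under 0.05, and of 0.24 in the July step with 6 called up and 0 down. Over all 1920 clones, 46 were called up and 78 down in the May step, and 21 up and 28 down in the July step. The lower clones were chosen for low values in June against May, so that a rise is partly built into both their adjoining steps. For the higher clones a fall is partly built into both steps in the same way. These medians and counts are descriptions.

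Placed on the fitted course of the whole year, the level of the higher clones was above its yearly mean in June and July. Relative to each clone's mean over the 12 months, their median log2 level was -0.07 in April and -0.24 in May. It was 0.60 for June and 0.51 for July, and stood at 0.04 by August. June was the highest month for 19 of the 38 clones and July for 12, and May was the lowest month for 12. Over all 1920 clones June was the highest month in 10.2%. The lower clones had a median of 0.16 in May, which fell to -0.59 for June and stood at -0.28 for July and 0.06 by August. June was the lowest month for 28 of the 37 and July for 6, against 14.4% of all clones with their lowest month in June. The June and the May values were used to choose both groups, and these medians and counts describe them only.

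In July 11 of the 38 higher clones were called above May, as were 1.15% of all clones, and 6 of the 37 lower ones below it, as were 0.677% of all. These counts use the same May arrays by which the groups were chosen. In August limma called 0 of both groups against May and 0 of the 1920 clones (0%), while 11 of the higher, 10 of the lower and 271 of all clones had an unadjusted p under 0.05. No array set August against May directly. The comparison runs over several steps and is less precise than June against May, so that the absence of calls does not show a return to the May level. Outside these months, 23 of the 38 higher clones (60.5%) were called in at least 1 of the 9 steps that involve neither May nor June, against 14 of 37 (37.8%) lower clones and 403 (21.0%) of all clones. These shares were not tested against each other. The fit used 1 spread per clone for all steps, so that calls in different steps are not independent. The median SE of the June difference was 0.155 among the higher, 0.149 among the lower and 0.146 among all clones. Brightness differed between the groups as given above, and the part of brightness and spread in these shares was not tested.

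**Figure D5:**
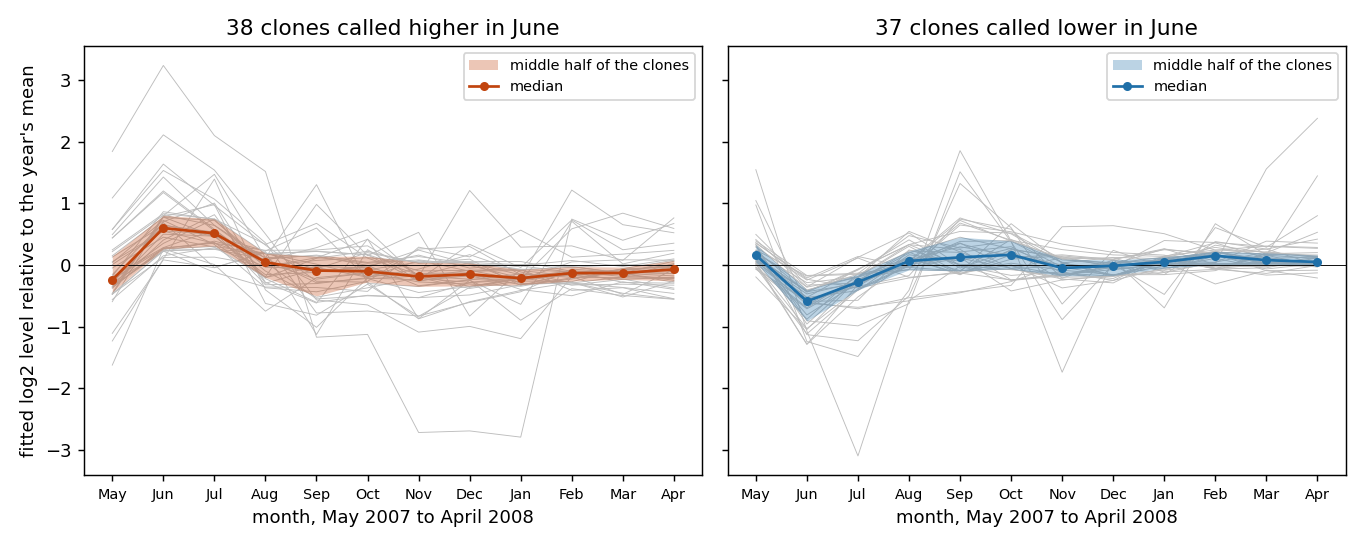
Fitted log2 level relative to the mean of the year for the 38 clones called higher (left) and the 37 called lower (right) in June, by month from May 2007 to April 2008. Grey lines are single clones, the coloured line the median and the shaded band the interquartile range. The median of the higher clones is 0.60 in June and 0.51 in July, and that of the lower clones -0.59 in June and -0.28 in July.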

How the data were processed

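The values used were the deposited spot intensity values of GenePix, taken by the authors from 16-bit ChipReader scans as mean foreground and median local background per dye, without normalization. The authors also deposited log2 ratios, made with limma (version not stated) after background subtraction with an offset and loess, and these served as an alternative. For 2 of the 40 arrays, Dec/Nov replicate 3 and Mar/Feb replicate 4, these ratios did not match the scanner output of the same array. Those of the 3 Jun/May arrays did. Intensities were corrected here with normexp (offset 50), a global loess curve was fitted to the 3840 clone spots of each array, ratios were turned to June over May by the dye labels, and duplicate spots were averaged. The limma 3.58.1 model (R 4.3.3) covered all 40 arrays with January as the reference month, 29 residual and 3.68 prior degrees of freedom. It was also run on simulated ratios with independent noise on each array. That simulation held no dye effect and no shared animals, and it cannot tell how these would affect the calls. Each Jun/May array had a weight of 0.303 in the June minus May contrast and every other array at most 0.0303. The 3 Jun/May arrays hold different animals according to the study, and their small number limits the precision.

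The 2 clones with the highest B in each direction are named, since no table used here pairs clones with genes. Gene lists and cell type markers were not analysed here. The members and lists were chosen with earlier results of these data known. Alternatives covered background correction, normalization, scaling, a dim-clone filter, a dye term, a replicate block, array weights, the call rule, and the arrays included.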

Additional observations from a re-analysis of the deposited data

Results flagged for a closer look

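The step from May to June differed from a neighbouring step, by a limma contrast between the steps, in the following results. Against the step from April to May, 76 clones differed. The step from June to July differed from that of May to June in 93 clones. Myt01-003D06 had a June step more positive than its May step by 2.57 ± 0.24 (SE, log2), and its July step minus its June step was -1.18 ± 0.25. For Myt01-014H10 the July step minus the June step was -1.17 ± 0.23. For Myt01-012D07 the June step minus the May step was -1.26 ± 0.24, and the July step minus the June step was 2.10 ± 0.26. For Myt01-011D07 these values were -1.21 ± 0.24 and 2.28 ± 0.25. Neighbouring steps share a month, so that a level that is high or low in June alone gives opposite steps on its 2 sides. Groups of 3 arrays are too small for the search for single outlying arrays, which was therefore not made.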

How the results depend on the processing

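The 75 calls between June and May became 34 with median centring in place of loess, 175 with the adjusted p alone and 0 with limma on the 3 arrays alone, where 230 clones had an unadjusted p under 0.05. Leaving out single arrays (each Jun/May array, or the first Apr/Mar array, which ran against the others of its step) gave 31 to 83 calls, the lowest without Jun/May replicate 2. The 76 clones whose June step differed from the May step became 38 with median centring and 185 with the adjusted p alone, and 56 to 85 without single arrays. The 93 clones whose July step differed from the June step became 58 with median centring, 218 with the adjusted p alone and 48 to 105 without single arrays, the lowest without Jun/May replicate 2. The causes were not tested.

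The other settings kept each count within 1.5 times: subtraction or no background correction, loess over all spots or per print-tip block, Aquantile scaling, a filter on dim clones, a dye term, array weights, the authors' log2 ratios, and the loop without the May/Apr arrays. The clones behind the June against May count changed more. Of the 75, 51 were called again with array weights, 59 with print-tip loess and 66 without background correction. The filter on dim clones kept 55, the loop without the May/Apr arrays 56 and the authors' ratios 64. Subtraction, loess over all spots, Aquantile scaling and the dye term kept 73 to 75. Differences between steps could not be fitted on the 3 arrays alone, nor the difference from the May step without the May/Apr arrays. With the replicate block as a random effect, June against May gave 79 calls, 41 higher and 38 lower, and the differences between steps 77 and 97, at a consensus correlation of 0.0125. Deviations of same-numbered arrays of adjoining steps correlated with r between 0.03 and 0.43. In 4 of 6 comparisons r was highest with the array of the same number. Whether the numbers mark shared animals cannot be told from these values, and the main fit did not use them as pairs. The study describes a loop that set each RNA of a month against that of the following month. It does not state outright that the same RNA served both steps. The replicate block assumes the same correlation over all steps. An animal shared by adjoining steps enters their ratios with opposite signs, so that the block cannot settle the question. None of the 75 clones changed sign in any of these settings that tested it. Each setting kept Jun/May arrays by which the clones were chosen, so that a stable sign was largely built in. The named clones lost their call on the 3 arrays alone (adjusted p 0.192 for Myt01-003D06 and 0.292 for the others) and in no other setting, but Myt01-014H10 was not tested under the filter on dim clones. Called in all 17 settings that used the loop were 3 higher and 5 lower clones. The signal over background was low in many clones, with 486 above background in neither month on any array.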
